A study of Homo sapiens with 3 samples.

Results

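The loci described here are the nuclear tRNA genes, 429 of the 58957 gene loci that a RefSeq gene table places on chromosomes 1 to 22, X and Y. Each gene was extended by 1 kb on both sides, and the summits of the peaks that chromatin immunoprecipitation gave inside those windows were collected. The cells were HCT116, a human colorectal cancer line, and all of them expressed Flag-tagged VCP, including those behind the input. VCP is an ATPase that pulls ubiquitin-tagged proteins out of complexes, membranes and chromatin. Chromatin was fixed for 10 minutes in 1% formaldehyde and cut with micrococcal nuclease. It was then precipitated with an antibody to VCP in 1 library and with an antibody to the Flag tag in 1 library, and an input library was sequenced beside them. Peaks of the VCP and Flag libraries are described, and the input was not analysed here. The sources used here do not say how the tag was introduced or whether the line is 1 clone. The VCP antibody can bind both the tagged and the cells' own VCP. The peak lists measure no expression, so the labelled cell type was not checked against marker genes.

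Each antibody had 1 library, so no difference below has a replicate check and no p-value is given. The VCP list held 1803 peaks on the chromosomes and the Flag list 5692. Reads at a summit were recovered from the authors' fold enrichment and p-value. Their median was 10 for VCP peaks and 11 for Flag peaks, and the lowest in either list was 7. A locus with no listed summit was not detectable at this depth, and is not shown to lack VCP. Exact 95% intervals are Clopper-Pearson for shares and Poisson for reads. They cover counting error alone, as PCR copies are counted as separate reads, and they treat loci as separate although neighbours share peaks.

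A tRNA gene is about as long as the tRNA it encodes and is transcribed by RNA polymerase III. Its promoter lies inside the gene, in a pair of short stretches called the A box and the B box, which TFIIIC binds before TFIIIB is placed upstream of the start and recruits the polymerase. Human tRNA genes occur in many copies, often in clusters, and active copies are kept free of nucleosomes even where no protein-coding gene is near. Symbols give the amino acid as 1 letter and then the anticodon, so TRL-AAG2-2 is a leucine tRNA gene with the anticodon AAG, and TRX-CAT marks the initiator methionine tRNA.

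The gene sequences below show what a window centres on. RefSeq promoter windows of GRCh38.p14 belong to other genes, but 14 tRNA genes were found whole inside one, and these were read from there. Not every chromosome was searched for such genes, so the 14 are those on the chromosomes searched. All 14 held the letters GTTCNANNC in their last part (the B box, where N is any base), and 10 also held TNGNNNA followed at once by NNGG near their start (the A box). Both strands were searched, the motifs do not overlap in these genes, and the capitals mark them. Among all 35116 promoter windows of 300 bases, 7.48% held the B box letters and 38.8% the A box letters, so a match alone is weak. Of the 14, the first 4 shown are those with a Flag summit within 1 kb, and the fifth is the one with a VCP summit.
TRL-AAG2-2: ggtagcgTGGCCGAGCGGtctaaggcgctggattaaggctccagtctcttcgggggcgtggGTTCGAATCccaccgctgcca
TRP-TGG3-5: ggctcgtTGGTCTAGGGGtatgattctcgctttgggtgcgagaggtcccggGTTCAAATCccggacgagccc
TRT-TGT6-1: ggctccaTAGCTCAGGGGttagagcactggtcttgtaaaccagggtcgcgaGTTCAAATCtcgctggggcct
TRR-ACG2-1: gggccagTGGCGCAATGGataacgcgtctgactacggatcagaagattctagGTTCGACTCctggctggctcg
TRN-GTT6-1: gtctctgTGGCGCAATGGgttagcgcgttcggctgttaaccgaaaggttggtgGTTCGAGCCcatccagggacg

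TRL-AAG2-2 lies at chr6:28943622-28943703 on the minus strand, and its Flag summit fell inside the gene, 60 bp after the first base. TRP-TGG3-5 lies at chr16:3188094-3188165 on the plus strand, and its Flag summit was 85 bp upstream. TRT-TGT6-1, at chr5:181191687-181191758 on the minus strand, had its Flag summit 107 bp upstream. TRR-ACG2-1, at chr3:45688999-45689071 on the minus strand, had it 206 bp upstream. TRN-GTT6-1, at chr1:143735920-143735993 on the minus strand, had its VCP summit 279 bp after the first base, which is 206 bp past the end of the gene. In these 4 genes the Flag summit lay within the gene or upstream of it. Among the 5 peaks only that at TRL-AAG2-2 (-log10 q 4.27) had a q of at most 0.05. The Flag -log10 q was 0.884 at TRP-TGG3-5, 0.458 at TRT-TGT6-1 and 0.813 at TRR-ACG2-1. That of the VCP peak at TRN-GTT6-1 was 1.04, so no pattern of position is drawn from these. Each of the 5 genes was read from the promoter window of a neighbour, so a start of another gene lies near. LINC01556 was 141 bp from the TRL-AAG2-2 summit, TRIM7-AS2 25 bp from that of TRT-TGT6-1 and OR1F1 195 bp from that of TRP-TGG3-5. SACM1L was 119 bp from the TRR-ACG2-1 summit and LOC107985108 333 bp from that of TRN-GTT6-1. An identical gene could lack a summit. TRP-TGG3-2 on chromosome 14 has the same bases at 72 of 72 positions as TRP-TGG3-5, and its nearest Flag summit was 222315 bp away. That contrast rests on the weak peak at TRP-TGG3-5. The other identical pair read, TRH-GTG1-3 and TRH-GTG1-9 (72 of 72), had a summit at neither gene.

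A Flag summit lay within 1 kb of 71 of the 429 tRNA loci, 16.6% (95% interval 13.2 to 20.4). Over all gene loci the same measure, a summit within 1 kb of an end, gave 5.65%. Flag summits stood at tRNA genes of 20 of 22 amino acid classes and of 37 of 49 anticodons. A VCP summit lay within 1 kb of 10 tRNA loci, 2.33% (1.12 to 4.24), beside 1.14% of all gene loci. Windows of neighbouring tRNA genes overlap, and the 71 loci rested on 54 distinct Flag peaks and the 10 on 7 VCP peaks. With overlapping windows joined, 48 of 325 windows had a Flag summit (14.8%) and 7 had a VCP summit (2.15%). The 54 peaks were 0.949% of the Flag list, and the 7 were 0.388% of the VCP list.

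In both lists, gene loci had a summit more often where an end of a protein-coding gene lay in the window. The tRNA loci were therefore split by whether such an end lay in theirs. Of the 374 tRNA loci without one, 50 had a Flag summit, 13.4% (10.1 to 17.2), while 1.17% of all such gene loci had one. Other genes of similar length stood lower in the Flag list when no protein-coding end was near. The share was 5.80% of 138 small nuclear RNA loci (2.54 to 11.1), 1.42% of 1692 microRNA loci and 0.720% of 1111 small nucleolar RNA loci (0.311 to 1.41). The interval for tRNA loci overlaps that for small nuclear RNA loci and lies above those for microRNA and small nucleolar RNA loci, and no test between classes was run. Among the 55 tRNA loci with a protein-coding end in the window, 21 had a Flag summit, 38.2% (25.4 to 52.3). Over all gene loci with such an end it was 11.7%, and for small nuclear RNA loci 5 of 11, 45.5% (16.7 to 76.6).

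In the VCP list 5 of the 374 tRNA loci without a protein-coding end had a summit, 1.34% (0.435 to 3.09), beside 0.266% of all such gene loci. With one in the window it was 5 of 55, 9.09%, beside 2.33% of all such gene loci and 1 of 11 small nuclear RNA loci. Small nuclear RNA loci without a protein-coding end were at 1.45% (0.176 to 5.14), microRNA loci at 0.118% (0.0143 to 0.426) and small nucleolar RNA loci at 0.0900%. These VCP shares rest on 5 loci or fewer each. With peaks of q at most 0.05, 25 tRNA loci had a Flag summit (5.83%, 3.81 to 8.48), beside 2.57% of all gene loci. Small nuclear RNA loci stood at 5.37% (2.35 to 10.3) and protein-coding genes at 5.53%, both near the tRNA share. Of the 374 tRNA loci without a protein-coding end 20 had one (5.35%), beside 0.414% of all such gene loci. For small nuclear RNA loci this was 3.62% (1.19 to 8.25). With a protein-coding end it was 9.09% of tRNA loci, 27.3% of small nuclear RNA loci and 5.49% of all gene loci. For VCP 1 tRNA locus was left (0.233%), beside 0.141% of all gene loci. It had no protein-coding end in its window, which made 0.267% of such tRNA loci beside 0.0325% of all such gene loci.

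**Figure D1:**
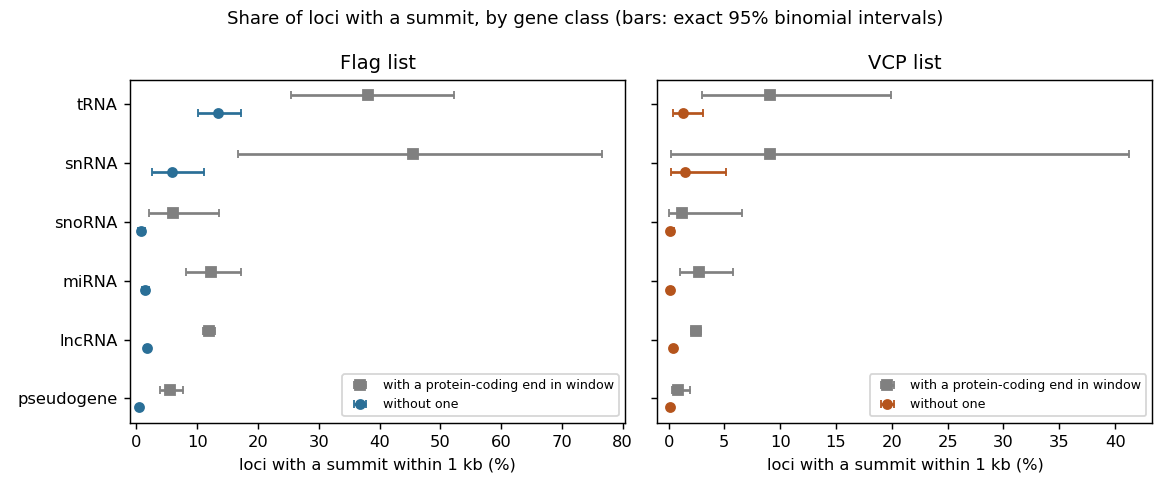
Share of loci with a summit within 1 kb (%, horizontal axis) for 6 gene classes (vertical axis), in the Flag list (left) and the VCP list (right). Circles are loci without a protein-coding end in the window, grey squares are loci with one, and bars are exact 95% intervals; the tRNA circle stands at 13.4% in the Flag list and at 1.34% in the VCP list.

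Flag summits were densest within 250 bp of a tRNA gene, and the few counts per shell do not rank the shells inside that distance. In the Flag list 8 summits fell inside a tRNA gene, which is 248 per Mb of tRNA sequence, 15 fell 1 to 100 bp away (175 per Mb) and 16 fell 101 to 250 bp away (130 per Mb). From 251 to 500 bp there were 5 (27.4 per Mb) and from 501 to 1000 bp 10 (29.4 per Mb). Between 1001 and 2000 bp the density was 6.43 per Mb, between 2001 and 5000 bp 2.74 per Mb, between 5001 and 10000 bp 5.94 per Mb (11 summits, 5 of them away from protein-coding ends), and over the span from the first to the last gene of every chromosome 1.89 per Mb. Hence 39 of the 54 Flag peaks (72.2%, 58.4 to 83.5) had their summit within 250 bp of the gene, and the median distance was 118 bp (quartiles 42.5 and 299).

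VCP summits were few, with 1 or 2 in each shell out to 1 kb. They numbered 1 inside a tRNA gene, 2 at 1 to 100 bp, 2 at 101 to 250 bp, 1 at 251 to 500 bp and 1 at 501 to 1000 bp, and 0 between 1001 and 10000 bp. The median distance was 206 bp (lowest 0, highest 689, n = 7).

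**Figure D2:**
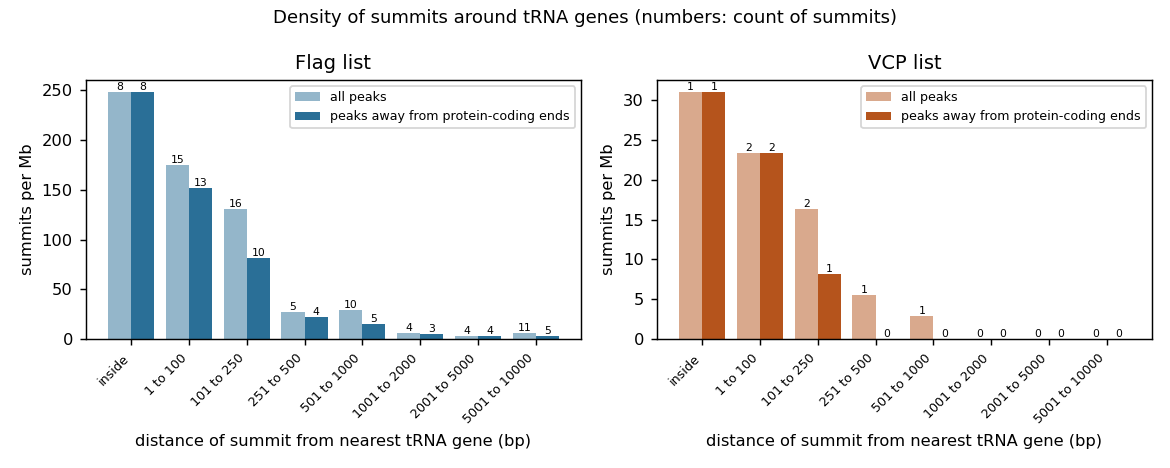
Summits per Mb (vertical axis) by distance from the nearest tRNA gene in bp (horizontal axis), in the Flag list (left) and the VCP list (right). Pale bars are all peaks, dark bars are peaks over 1 kb from protein-coding ends, and numbers are counts of summits; the Flag density is 248 per Mb inside the genes, 2.74 per Mb at 2001 to 5000 bp and 5.94 per Mb at 5001 to 10000 bp.

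Most Flag peaks at tRNA loci were away from protein-coding ends. Of the 54, 40 had their summit over 1 kb from either end of every protein-coding gene, 74.1% (60.3 to 85.0). Over the whole Flag list this was 64.4%, which lies inside that interval. Of the 429 tRNA loci themselves, 374 had no protein-coding end in their window. For the 40 away peaks the median distance to the tRNA gene was 77.5 bp, and for the 14 near protein-coding ends it was 199 bp. Of the 40, 36 had no annotated start of any other gene within 1 kb. The rest were the peaks at TRL-AAG2-2 and TRT-TGT6-1 described above, the one at TRF-GAA2-1, 64 bp from the start of LINC02739, and the one at TRA-AGC8-1, 164 bp from a start within AGBL5. Inside a protein-coding gene lay 4 of the 40. Of the 14, 11 lay within 1 kb of a protein-coding start, and at 6 of the 14 the summit was nearer to the tRNA gene than to the protein-coding end. In the VCP list 4 of 7 peaks were away from protein-coding ends (57.1%, 18.4 to 90.1), beside 78.1% of the whole list. These 4 summits lay 0, 73, 83 and 206 bp from a tRNA gene, and the 3 others 206, 333 and 689 bp.

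Loci close to the 1 kb limit were few. TRK-TTT4-1 was the last inside it, with its nearest Flag summit at 985 bp, and TRH-GTG1-8 stood at 978 bp. TRD-GTC2-6 was the first outside, at 1176 bp, followed by TRL-TAG1-1 at 1281 bp, TRQ-TTG3-2 at 1427 bp and TRS-GCT2-1 at 1463 bp. In the VCP list the outermost was TRR-CCT4-1 at 689 bp, and 0 loci lay between 1 and 1.5 kb.

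The strongest Flag peak at a tRNA locus was on chromosome 1, where a histidine gene and a glycine gene share it. It spanned 146037728 to 146038372, covered TRH-GTG1-1 and had its summit 184 bp from that gene and 728 bp from TRG-TCC2-1. Its fold enrichment was 5.89, with 16 reads (95% interval 9.15 to 26.0), and its -log10 q of 5.37 ranked 165 in the list. The nearest protein-coding end was 16125 bp away. The next was the peak inside TRL-AAG2-2, whose sequence is printed above, at 28943533 to 28943755 on chromosome 6, with a fold enrichment of 4.33, 21 reads (13.0 to 32.1) and -log10 q of 4.27. TRM-CAT3-1, an elongator methionine gene, reached the same peak at 932 bp. Both peaks had a q under 0.05, as did 18 of the 54 (33.3%, 21.1 to 47.5), against 33.8% of the whole Flag list.

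The remaining top places were mostly on chromosome 6. The leucine gene TRL-TAA4-1 on chromosome 6 had its summit inside the gene (fold enrichment 5.27, 14 reads over a background of 1.85, -log10 q 3.90). TRL-CAA3-1 and TRL-CAA1-2, leucine genes also on chromosome 6, had summits inside the gene too, each with a fold enrichment of 4.57, 12 reads and -log10 q 2.51. The same values were listed for TRS-AGA2-4 on chromosome 6, 83 bp from its summit, which TRD-GTC2-7 reached at 788 bp, and for TRQ-CTG4-1 on chromosome 1, at 194 bp. With so few reads equal values are common, and these 5 loci tie for the last of the top places. Leucine genes as a whole had a Flag summit at 7 of 32 loci (21.9%), beside 16.6% of all tRNA loci.

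TRL-AAG2-4 lies at the promoter of POLR3E, which encodes a subunit of RNA polymerase III, at chr16:22297140-22297221. The Flag peak spanned 22297182 to 22297365, with a fold enrichment of 4.62, 15 reads (8.40 to 24.7) and -log10 q 3.28. Its summit was 115 bp after the first base of the tRNA gene, 34 bp past its end, and 154 bp upstream of the POLR3E start. The promoter window of POLR3E upstream of its start, chr16:22297159-22297408 on the plus strand, is shown because it holds both the peak summit and 63 bases of the tRNA gene, in capitals, with the B box letters among them.
POLR3E: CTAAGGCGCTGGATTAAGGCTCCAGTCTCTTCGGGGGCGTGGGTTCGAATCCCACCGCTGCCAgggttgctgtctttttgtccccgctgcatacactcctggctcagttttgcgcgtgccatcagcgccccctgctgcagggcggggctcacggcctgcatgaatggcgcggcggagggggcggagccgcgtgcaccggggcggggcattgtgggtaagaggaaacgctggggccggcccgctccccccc
Which of the tRNA gene and the protein-coding start the summit belongs to cannot be told apart.

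In strength the Flag peaks at tRNA loci were ordinary for their list. Their median fold enrichment was 3.30 (quartiles 3.03 and 3.82, n = 54), and that of all Flag peaks was 3.49 (3.06 and 3.95). Away from protein-coding ends the medians were 3.47 (n = 40) and 3.37 (n = 3666). Near them, they were 3.09 (n = 14) and 3.67 (n = 2026). The reads at the summit had a median of 12 at tRNA loci and of 11 over the list. The 7 VCP peaks ranged in fold enrichment from 2.80 to 4.66, with a median of 3.92 beside 3.28 for the whole VCP list, and the 4 away from protein-coding ends ranged from 3.50 to 4.66.

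**Figure D3:**
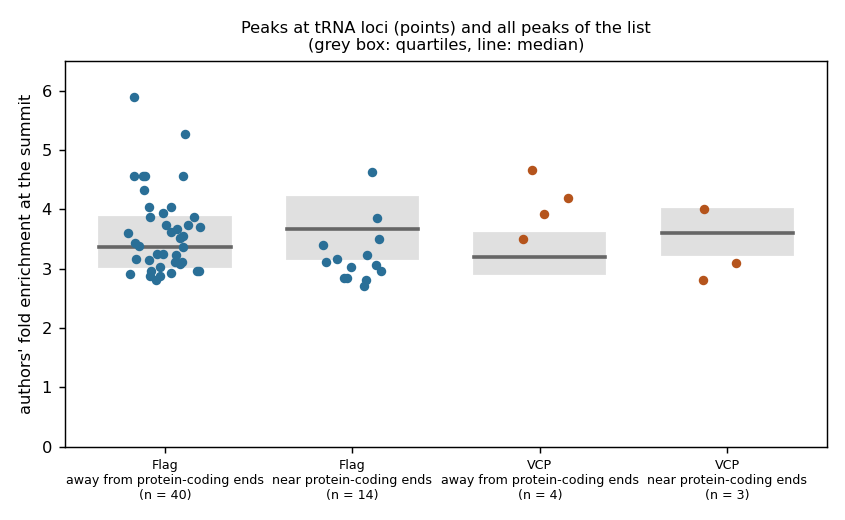
The authors' fold enrichment at the summit (vertical axis) of each peak at a tRNA locus (points), split by list and by distance from protein-coding ends (horizontal axis). Grey boxes are the quartiles and lines the medians of all peaks of that kind; most Flag points lie within or near the boxes, and the highest is 5.89.

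The VCP list marked 10 loci by 7 peaks. TRX-CAT1-8, an initiator methionine gene near the end of chromosome 17, had the strongest, at 82494798 to 82495007, with its summit 73 bp from the gene. Its fold enrichment was 4.66, with 21 reads (13.0 to 32.1) and -log10 q of 3.96, and it was the one VCP peak at a tRNA locus with a q under 0.05. The nearest Flag summit was 24685 bp away. TRN-GTT6-1, an asparagine gene, had a VCP fold enrichment of 4.19 (11 reads) and no Flag summit in its window. A VCP peak with a fold enrichment of 2.80 (9 reads) lay 689 bp from TRR-CCT4-1, an arginine gene, and 124 bp from an end of FMC1-LUC7L2, so the protein-coding end was the nearer. These 3 loci had no Flag summit within 1 kb.

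The other 7 VCP-marked loci also had a Flag summit, which is 9.86% of the Flag-marked loci. TRK-CTT2-5, a lysine gene at chr16:3175691-3175763, had the VCP summit inside the gene (fold enrichment 3.92, 13 reads, 6.92 to 22.2) and the Flag summit 41 bp from it (3.73, 11 reads, 5.49 to 19.7). The summits were 59 bp apart and 12400 bp or more from any protein-coding end. TRD-GTC2-10 and TRA-TGC4-1, neighbouring aspartate and alanine genes on chromosome 12, shared a VCP summit and a Flag summit 36 bp apart. The VCP fold enrichment there was 3.50 (12 reads) and the Flag fold enrichment 3.36 (12 reads), and the summits lay between the 2 genes, at 83 and 47 bp from TRD-GTC2-10. TRF-GAA1-6 and TRN-GTT2-6 on chromosome 19 stood beside NDUFS7, which encodes a subunit of respiratory complex I. Their VCP summit was 62 bp and their Flag summit 126 bp from the NDUFS7 end, nearer than either tRNA gene.

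TRY-GTA2-1 and TRA-AGC8-1 at AGBL5, a carboxypeptidase gene on chromosome 2, were the remaining pair. The VCP peak there ended at 27050839 and the Flag peak began at 27050841, so the 2 peaks did not overlap. Thus 3 of the 7 VCP peaks at tRNA loci overlapped a Flag peak (42.9%, 9.90 to 81.6), which was 10.9% for the whole VCP list. In the other direction it was 3 of 54 Flag peaks (5.56%, 1.16 to 15.4) and 3.44% of the whole Flag list. The interval of the VCP share includes the value of the whole list.

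By place, the loci off chromosomes 1 and 6 were marked most often when all listed peaks were counted. Chromosome 6 held 154 loci, and 23 of them had a Flag summit, 14.9% (9.71 to 21.6). Chromosome 1 held 85, of which 5 were marked, 5.88% (1.94 to 13.2). On the other chromosomes it was 43 of 190, 22.6% (16.9 to 29.2). The interval of chromosome 1 lies below that of the other chromosomes, and that of chromosome 6 overlaps both. This order was lost with Flag peaks of q at most 0.05, where the shares were 5.84% on chromosome 6, 5.88% on chromosome 1 and 5.79% on the others. For VCP the counts were 0 of 154 (exact interval 0 to 2.37%), 1 of 85 (0.0298 to 6.38%) and 9 of 190 (2.19 to 8.80%), and these intervals overlap. The 2 chromosomes with most tRNA genes thus carried 1 of the 10 loci with a VCP summit, and those 10 rested on 7 peaks. The share also moved with crowding: 44 of 170 loci with another tRNA gene within 2 kb had a Flag summit (25.9%), and 27 of 259 without one did (10.4%). A crowded locus can be reached by its neighbour's peak, and that part of the difference was not tested.

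The largest group of tRNA genes, chained by gaps of at most 500 kb, was the 144 loci at chr6:26286526-28989083, which also holds histone genes. Its tRNA genes belonged to 19 amino acid classes, and 22 of its loci had a Flag summit, on 17 distinct peaks. Of these 22 loci, 21 had no protein-coding end in the window. The exception, TRX-CAT1-2, had its summit 894 bp away and 98 bp from the start of the histone gene H4C8 (fold enrichment 3.22). In all, 35 Flag peaks and 2 VCP peaks lay in this span. Some marked loci were neighbours, which can share a peak, and the spacing of marked loci against that of all 144 genes was not tested. Near the start of the group TRX-CAT1-3, TRS-TGA3-1, TRR-TCG2-1, TRS-AGA2-1 and TRR-ACG1-1 were reached by 3 peaks with fold enrichments from 2.92 to 3.86. Near its end TRL-CAA1-2, TRQ-CTG1-3 and TRL-AAG2-2 had summits at 0, 11 and 0 bp.

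**Figure D4:**
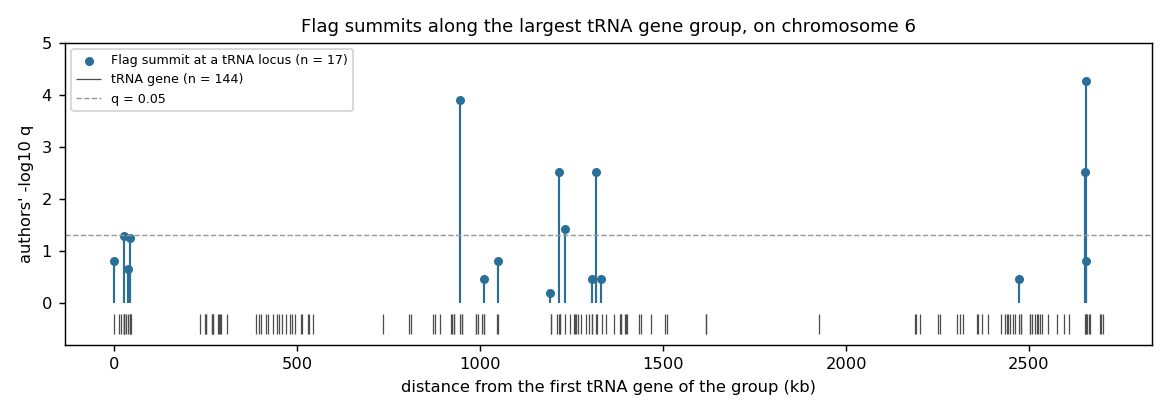
The authors' -log10 q of each Flag summit at a tRNA locus (stems with points, vertical axis) along the chromosome 6 group, by distance in kb from its first tRNA gene (horizontal axis). Grey ticks are the 144 tRNA genes and the dashed line is a q of 0.05; the 17 peaks lie at 22 loci, and the highest -log10 q is 4.27, at TRL-AAG2-2.

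Smaller groups ran from most loci marked to none. On chromosome 12, at 124921755 to 124940037, 4 of 5 loci had a Flag summit, on 3 peaks. The chromosome 17 group at 8119155 to 8227064 had 8 of 18 (44.4%, 21.5 to 69.2), on 4 peaks, 1 of which reached 4 genes: TRT-AGT1-1, TRS-GCT4-3, TRI-AAT5-5 and TRW-CCA3-3. Of its 11 loci without a protein-coding end in the window, 4 had a Flag summit. Among its 4 peaks only that at TRS-CGA1-1 (-log10 q 2.09) had a q of at most 0.05. On chromosome 11, at 59550629 to 59566452, it was 3 of 8, and these were the lysine gene TRK-TTT5-1 with the summit inside the gene (fold enrichment 4.04) and the phenylalanine genes TRF-GAA1-3 and TRF-GAA2-1. The chromosome 5 group of 17 loci had 4 and the chromosome 16 group of 14 loci at 3150674 to 3192060 had 3. By contrast 0 of 14 were marked on chromosome 14 at 20609336 to 20684087, and 0 of 19 on chromosome 7 at 149310190 to 149707740.

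On chromosome 1 the 32 loci at 161399700 to 161612029 had 1 with a Flag summit, the asparagine gene TRN-GTT1-1 (15 bp, fold enrichment 3.73, 11 reads). In that span genes such as TRE-CTC1, TRG-TCC2, TRD-GTC2, TRL-CAG1 and TRG-GCC1 follow one another repeatedly, and this was the only Flag peak listed in it. How reads from near-identical copies were placed or discarded is not given in the sources used here, and its part in the low share was not tested.

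By amino acid, the highest Flag shares were those of the initiator methionine genes, with 3 of 8 (37.5%, 8.52 to 75.5), the phenylalanine genes, with 4 of 11 (36.4%, 10.9 to 69.2), and the arginine genes, with 9 of 26 (34.6%, 17.2 to 55.7). Histidine (3 of 9), glutamine (6 of 19) and serine (8 of 26) genes followed. The lowest among classes of at least 5 loci was cysteine, with 0 of 29, and glutamate (1 of 15) and valine (2 of 30) came next. The exact cysteine interval, 0 to 11.9%, lies below those of arginine, serine (14.3 to 51.8) and glutamine (12.6 to 56.6) and overlaps those of the others. Of the 29 cysteine genes 18 belong to the unmarked chromosome 7 group, so amino acid and place cannot be told apart there. Cysteine genes outside that group had no Flag summit either. Of the 37 alanine genes 30 were on chromosome 6, where 1 was marked, beside 23 of all 154 tRNA loci there (14.9%). Of the 7 alanine genes elsewhere 2 were marked.

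Among anticodons with at least 5 genes, arginine TCG and threonine CGT were highest, each with 2 of 5 (5.27 to 85.3%), and glutamine CTG had 5 of 13 (38.5%, 13.9 to 68.4). Those with 0 were cysteine GCA (29 genes), leucine CAG (9), proline AGG (9), glycine CCC (8), glutamate TTC (7) and valine TAC (5). Anticodons of 1 amino acid could differ, as with leucine AAG, 3 of 9, and leucine CAG, 0 of 9, but their intervals (7.49 to 70.1% and 0 to 33.6%) overlap. VCP summits stood at genes of 9 anticodons, with 2 asparagine GTT genes the most.

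**Figure D5:**
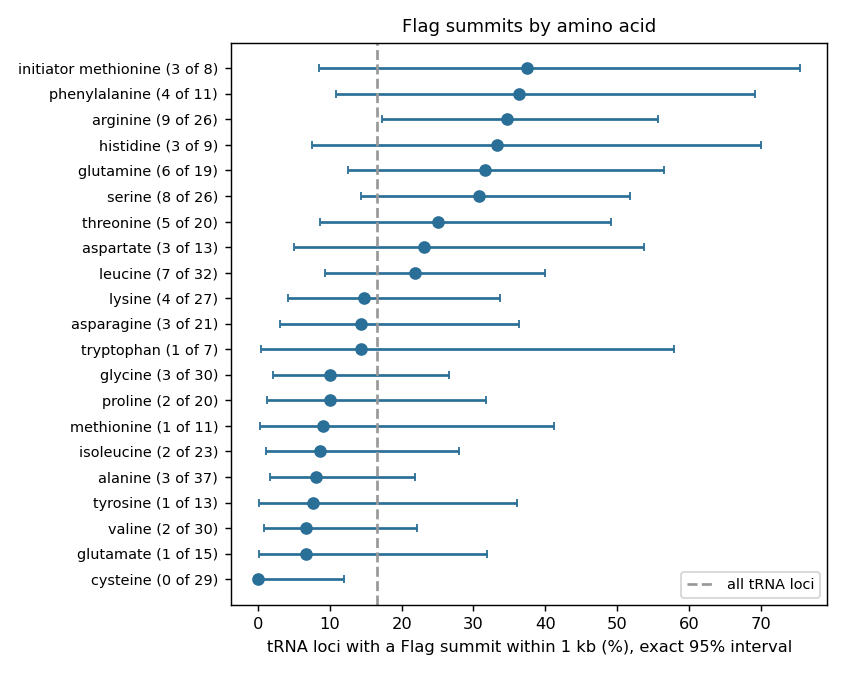
Share of tRNA loci with a Flag summit within 1 kb (%, horizontal axis) by amino acid, for classes of at least 5 loci (vertical axis, with counts). Points are shares, bars are exact 95% intervals and the dashed line is 16.6%, the share of all tRNA loci; most intervals cross the line, with arginine above it and cysteine below it.

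Copies that by name encode the same tRNA were not always marked alike. Of 57 sets of at least 2 loci that share a symbol up to the copy number, 24 had a Flag summit at some of their loci, 33 at none and 0 at all of them. Beside this, 16.6% of all tRNA loci had a Flag summit. Whether copies differed more than so low a share alone would give was not tested. TRX-CAT1 had 3 of 8, TRH-GTG1 3 of 9, TRD-GTC2 3 of 11, TRQ-CTG1 3 of 5 and TRS-AGA2 3 of 6. Within TRX-CAT1 the Flag summits were at TRX-CAT1-2, TRX-CAT1-3 (50 bp) and TRX-CAT1-6 (inside the gene), and the VCP summit at TRX-CAT1-8, so no copy carried both. With 3 of 8 copies marked for Flag and 1 of 8 for VCP, no conclusion is drawn from that.

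Other genes of RNA polymerase III carried Flag summits mainly beside protein-coding genes. Of 37 such genes, 5 had a Flag summit within 1 kb (13.5%) and 0 had a VCP summit (which allows up to 8.11%). Over all gene loci the shares were 5.65% for Flag and 1.14% for VCP. The -log10 q of the 5 Flag summits ran from 0.212 at RNU6-2 to 1.29 at RMRP. None of them passed the q threshold used for tRNA loci above. Of the 31 without a protein-coding end in the window, 1 had a Flag summit (3.23%, 0.0816 to 16.7), beside 1.17% of all such gene loci. Of the 6 with one 4 did (66.7%, 22.3 to 95.7), beside 11.7% of all such gene loci. The share of tRNA loci without a protein-coding end, 13.4%, lies inside the interval of 0.0816 to 16.7, and the difference was not tested. RN7SL1, the RNA of the signal recognition particle, had the summit inside the gene and 12121 bp from the nearest protein-coding end (fold enrichment 3.31, 11 reads). The other 4 had a protein-coding end in the window: RNU6-2, a U6 spliceosomal RNA gene (2.43, inside the gene), RN7SK, which encodes the RNA that holds back elongation factor P-TEFb (2.56, 31 bp), RMRP, the RNA of RNase MRP (3.86, 140 bp), and RPPH1, the RNA of RNase P, which trims tRNA 5′ ends (3.70, 328 bp). All 17 5S ribosomal RNA genes, which are near-identical repeats, were without a listed summit in either list, and for these the limit that a count of 0 allows is 17.6%.

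Among all protein-coding genes 11.7% had a Flag summit within 1 kb of an end. Flag summits lay at the ends of 3 of 13 polymerase III subunit genes: POLR3GL (fold enrichment 5.97, -log10 q 5.47), POLR3E (4.62) and POLR1D (3.16). Of 17 factor genes 4 were marked. These were SNAPC2 (4.75) and SNAPC3 (3.67), subunits of the complex that starts U6 transcription, GTF3A (3.86), which binds the 5S gene, and MAF1 (3.13), a repressor of polymerase III. It was 3 of 21 for tRNA end processing, with POP1 (3.83), a protein of RNase P, TSEN15 (3.37), a tRNA splicing endonuclease subunit, and RPP25 (3.37), and 4 of 20 for aminoacyl-tRNA synthetases (TARS1 3.86, GARS1 3.83, WARS1 3.86 and IARS1 3.49). With lists this short 1 or 2 genes decide these shares. Among VCP peaks, where 2.34% of protein-coding genes were marked, the counts were 1 of 13 (POLR3G, 3.53), 0 of 17, 1 of 21 (TSEN54, 3.98) and 0 of 20. Both VCP summits were nearer to a neighbour, MBLAC2 at 142 bp and CASKIN2 at 299 bp.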

How the data were processed

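Chromatin immunoprecipitation sequencing of HCT116 cells gave 1 VCP, 1 Flag and 1 input library. Per the submitters' processing notes, the reads went through MACS2 2.1.0, Bowtie 1.1.2, Trimmomatic 0.33 and bcl2fastq 2.17, listed without order, on hg38. The sources used here give no settings. In the deposited peak lists the authors give, per peak, a fold enrichment (a ratio, summit against local background), -log10 p and -log10 q, and a score that equals 10 times -log10 p rounded down, which was not used. Listed peaks start at -log10 p of 3.00, and 6.49% of VCP and 33.8% of Flag peaks had a q of at most 0.05.

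Python 3.11.15, pandas 2.3.3 and scipy 1.17.1 were used. Gene positions came from RefSeq's GRCh38.p14 table, which matches that build. Of its 443 nuclear tRNA rows, 14 with coordinates of other scaffolds were left out, as were 22 mitochondrial ones. Rows were taken as scaffold rows where the start fell by over 5 Mb within a chromosome. The table has no strand, so protein-coding ends mean either outer end. Starts and strands came from the RefSeq promoter windows. Reads at a summit were the whole number whose Poisson tail matched the authors' -log10 p within 0.001, found for all 1816 and 5719 peaks. The code was tested on simulated data. Peaks of different lists were called overlapping from 1 bp.

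Loci named were those with a VCP summit, those with summits of both lists, the 10 per list whose nearest summit had the highest -log10 q (with ties), those just outside the window, and genes with a summit from 5 lists, at most 4 per protein-coding list. Others in the text were chosen after their values were seen. Members and lists were chosen with earlier results of these data known. No test was run, since each antibody had 1 library.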

Additional observations from a re-analysis of the deposited data

How the results depend on the processing

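Of 72 recomputed values 49 stayed near the reported one: counts within 1.5 times, shares and medians within their own 95% interval. The threshold on q moved most, since most peaks are weak. With peaks of q at most 0.05, Flag loci fell from 71 to 25 (5.83%), and Flag peaks from 54 to 18. Beside that 5.83% stood 2.57% of all gene loci, 5.53% of protein-coding genes and 5.37% of small nuclear RNA loci. VCP loci and peaks were then 1 and 1. Under the same threshold the Flag share was 5.84% on chromosome 6, 5.88% on chromosome 1 (as before) and 5.79% on the other chromosomes, so that the order by place was lost. The VCP share was 0% on chromosome 1 and 0.526% on the others. Flag peaks away from protein-coding ends rose to 88.9% and VCP ones to 100% (1 peak). The Flag median distance was 62 bp and the median fold enrichment 4.04, which a stricter threshold raises by construction. At -log10 q of at least 5, 2 Flag loci on 1 peak and 0 VCP loci on 0 peaks were left. With a 250 bp window 41 Flag and 6 VCP loci remained in the count. With a 500 bp window the Flag share on other chromosomes was 15.3%, and 4 loci had both lists. With only Flag peaks of q at most 0.05, 3 loci had both. Leaving out windows with a protein-coding end gave 5 VCP loci. Counting as away only Flag peaks over 3 kb from protein-coding ends gave 59.3%. A 3 kb window left the VCP count at 10. No paired analysis was possible because each antibody had 1 library. With a median of 11 reads or so per summit, loci just below the calling threshold cannot be told from unmarked ones.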

Other observations

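Chaining loci by gaps of at most 500 kb left 102 groups, and 64 of these were single genes, of which 8 had a Flag summit (12.5%, beside 16.6% of all tRNA loci) and 2 a VCP summit. A protein-coding end lay in the window of 5 of the 8 and of 1 of the 2. At 8 loci, 2 or more Flag summits lay in the same window, and 0 loci had more than 1 VCP summit. TRK-TTT5-1 was one of the 8, with one summit inside the gene and another nearer to its neighbour TRF-GAA1-3. A small set on chromosome 17, the arginine genes TRR-CCT1-1, TRR-CCT2-1 and TRR-TCG3-1 beside KCTD2, had a Flag summit at 3 of 3 loci, on 2 peaks.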
